A study of Homo sapiens with 24 samples.

Results

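The genes described here are 32 genes of cholesterol and fatty acid synthesis: enzymes of the mevalonate and sterol pathways, the proteins that regulate them, and enzymes that make and desaturate fatty acids. They were chosen by gene symbol from a list of known pathway members, with earlier results of these data known. All 32 were found among the 48162 genes of the deposited tables, each in 1 row. The series holds 24 RNA-seq libraries in 8 groups of 3, from 2 immortalised pancreas lines, hTERT-HPNE (HPNE) and HPDE-H6c7 (HPDE), both labelled as normal pancreas cells. Each line was kept for 24 h in 1 of 4 ways: in fresh serum-free medium (untreated), in the residual medium left over from vesicle isolation (the negative control), with 1e10 extracellular vesicles (EVs) per well shed by PANC-1, a line of pancreatic carcinoma, or with 1e10 vesicles per well from PPCL-68, a pancreatic cancer cell source named only by its label. Both lines had been grown beforehand in keratinocyte serum-free medium; what the residual medium and the vesicle preparations carried over from the cancer cell cultures is not given in the sources used here. HPNE carries the telomerase gene and HPDE is a duct epithelium line, and each is a single line, so the 3 libraries of a group are replicates of a culture treatment and not of donors. The study asks what cancer cell vesicles do to normal pancreas cells, and the comparisons below ask it of lipid synthesis genes.

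Cholesterol is built from acetyl-CoA through mevalonate, isoprenoids, squalene and a chain of sterol intermediates, and fatty acids are built from the same acetyl-CoA by acetyl-CoA carboxylase and fatty acid synthase. Transcription of most of these enzymes is driven by sterol regulatory element binding proteins (SREBPs), which are made as membrane precursors in the endoplasmic reticulum. When membrane cholesterol is low, SCAP escorts the SREBPs to the Golgi, where they are cleaved and released to the nucleus. When cholesterol is high, the INSIG proteins hold SCAP back and the enzymes are transcribed less. Cells that take up little lipoprotein cholesterol depend on this synthesis for their membranes.

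The promoters of 28 members were found in the RefSeq promoter table (GRCh38.p14), as 41 windows of 300 bases that run from 250 bases before a start site to 50 after it. They were searched on both strands for a sterol regulatory element, TCACNCCAC, and for its longer form with an A in front, which holds the shorter one, for the CCAAT box bound by NF-Y, for the GC box GGGCGG and for the E-box CACGTG. The CCAAT box was found in 22 of the 28 members, or 78.6%, against 43.2% of 9102 expressed genes and 39.7% of all 27305 genes with a window. GGGCGG was in 27 of 28 members against 77.9% of expressed genes, and CACGTG in 4 of 28, or 14.3%, against 12.8%. The sterol regulatory element was in 1 member, SREBF2, in both forms, against 0.154% of expressed genes for the long form and 1.52% for the short form. Only matches to these strings inside the windows were counted, so an element of another form or place would be missed. The other members may thus hold such elements. Genes with several start sites have several windows, which adds chances of a match. ACAT2, FDFT1, FASN and SQLE had no entry.

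Stretches of 200 bases that end at the base before the start site are shown for 4 members that the results turn on, read 5′ to 3′ on the gene's strand. Capitals mark a sterol regulatory element and CCAAT or its complement ATTGG. SREBF2 (chr22:41832905-41833104, plus strand) is the member whose window held a match to the searched element. HMGCS1 (chr5:43313413-43313612, minus strand, 1 of its 2 start sites) and MSMO1 (chr4:165327469-165327668, plus strand) are enzymes that fell with both vesicle sources in both lines. SCAP (chr3:47475942-47476141, minus strand) passed the threshold in none of those 4 comparisons with residual medium.
SREBF2: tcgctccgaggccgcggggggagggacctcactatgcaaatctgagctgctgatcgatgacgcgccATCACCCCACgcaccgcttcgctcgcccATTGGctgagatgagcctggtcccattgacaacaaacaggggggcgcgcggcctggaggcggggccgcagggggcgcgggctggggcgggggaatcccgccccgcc
HMGCS1: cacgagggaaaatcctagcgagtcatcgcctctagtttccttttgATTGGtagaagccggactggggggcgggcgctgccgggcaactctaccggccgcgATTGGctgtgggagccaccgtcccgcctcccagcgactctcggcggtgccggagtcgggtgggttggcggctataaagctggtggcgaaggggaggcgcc
MSMO1: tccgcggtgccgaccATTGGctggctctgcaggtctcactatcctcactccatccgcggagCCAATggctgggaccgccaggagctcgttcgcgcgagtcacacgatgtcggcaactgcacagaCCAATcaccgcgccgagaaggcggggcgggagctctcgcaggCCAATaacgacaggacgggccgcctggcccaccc
SCAP: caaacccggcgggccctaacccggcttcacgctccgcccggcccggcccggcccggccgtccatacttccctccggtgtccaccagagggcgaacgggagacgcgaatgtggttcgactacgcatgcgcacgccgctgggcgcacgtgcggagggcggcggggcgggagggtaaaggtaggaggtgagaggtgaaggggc
The element of SREBF2 begins 134 bases before the start site and its CCAAT box 106 bases before it. MSMO1 holds 4 CCAAT boxes, HMGCS1 2 and SCAP none. CYP51A1, ELOVL6, FADS1, INSIG2 and PMVK were the other members whose windows held none. Of these ELOVL6, FADS1 and PMVK fell in HPDE with PPCL-68 vesicles against residual medium, where 36.4% of all genes were lower. ELOVL6 and INSIG2 also fell in HPNE with both sources, and FADS1 and PMVK passed in no other comparison with residual medium when all libraries were used.

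Levels are FPKM, reads per length of the gene and per library total, and were tested with limma on log2(FPKM + 1) across all genes with a mean of at least 1 FPKM in the line. A gene is said to have risen or fallen where the Benjamini-Hochberg adjusted p was under 0.05, and a bare value beside an adjusted p is a log2 difference on that scale. Libraries held 29874928 to 46490312 reads in HPNE and 29209142 to 42206773 in HPDE. The series text calls the replicates biological triplicates. In HPNE, 1 library of each group stood apart from the other 2, at 2.05 to 3.31 times the distance between them: untreated replicate 3, residual medium replicate 3, PANC-1 EV replicate 1 and PPCL-68 EV replicate 1. In HPDE the same ratio was 1.08 to 1.24. HPNE results are therefore given with all 12 libraries and without those 4. Those 4 were picked by these same expression values, so leaving them out narrows the spread within groups and more genes of any kind pass. For PANC-1 vesicles against residual medium, 24.2% of all genes were called with them and 59.1% without. Calls gained without them are a description and not separate support. Of the duct markers, EPCAM numbered at most 12 reads per HPNE library, against 148 to 192 FPKM in HPDE, while COL1A1, a mesenchymal marker, had 1411 to 4337 FPKM in HPNE and 2.27 to 5.03 FPKM in HPDE. The other 6 duct markers were also far lower in HPNE: CDH1 reached 0.112 FPKM, KRT19 0.905, KRT7 1.57, KRT5 0.939, KRT18 5.13 and KRT8 6.28 FPKM, where the lowest of these in HPDE, CDH1, held 44.9 to 56.6 FPKM. Markers of hepatocytes, fat cells, acinar and islet cells and immune cells summed to at most 0.216 FPKM in any library.

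Of the 32 members, 31 passed the filter in both lines, and the following counts cover those 31. CYP51A1, the sterol demethylase, was below the filter, at 0.501 to 1.52 FPKM, and was not tested. In the deposited coordinates it overlaps LRRD1 on the same strand over 30794 bases, and how reads in such overlaps were counted is not given in the sources used here. FADS2 overlaps FEN1 on the same strand over 4265 bases. FEN1 ranged from 6.73 to 61.6 FPKM over the libraries and FADS2 from 21.6 to 149.8 FPKM, and the part of FEN1 in the FADS2 values was not tested. The library kit kept no strand, so reads of opposite-strand neighbours cannot be told apart in FADS1 and FADS2, which overlap over 29692 bases, and in ACAT2, whose end overlaps SOD2 and TCP1. The same holds over shorter stretches for MVK with MMAB, ACSS2 with GGT7 and GGPS1 with ARID4B, and over 3804 bases for FDPS with RUSC1-AS1, which reached 4.68 FPKM where FDPS held 0.692 to 7.42 FPKM. FDPS, HSD17B7 and SCD have pseudogene entries by name, whose likeness in sequence was not measured. HSD17B7P2 reached 3.44 FPKM, the FDPS entries at most 0.294 FPKM and SCDP1 0 FPKM. The values of FDPS and HSD17B7 are uncertain.

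Against residual medium, the control that carries whatever was left after vesicle isolation, members fell with both vesicle sources in both lines. In HPNE, PANC-1 vesicles lowered 13 members and raised 0, with a median log2 difference of -0.39 over the 31; of all genes tested 24.2% passed the threshold and 10.3% were lower (13.9% were higher). PPCL-68 vesicles lowered 23 and raised 0 in HPNE, with a median of -0.83, against 39.9% of all genes called and 19.7% lower. In HPDE, PANC-1 vesicles lowered 22 and raised 0, with a median of -0.56, against 63.3% called and 35.1% lower. PPCL-68 vesicles lowered 26 and raised 1 in HPDE, with a median of -0.77, against 67.7% called and 36.4% lower. The median over all genes lay between -0.04 and 0.02 in these 4 comparisons. The members were chosen with earlier results of these data known, so these counts describe the list and are not a test of it.

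Without the 4 HPNE libraries that stood apart, PANC-1 vesicles lowered 23 members and raised 2 (GGPS1 and SCAP), with 31.0% of all genes lower and 59.1% called. PPCL-68 vesicles then lowered 28 and raised 0, with 37.5% of all genes lower. In HPDE the summed level of the duct markers moved with the same treatments: 7 of 7 were detected in every group, and the sum ran from 4519 to 4791 FPKM untreated, 4012 to 4541 with residual medium, 2363 to 2683 with PANC-1 vesicles and 1743 to 1801 with PPCL-68 vesicles. Keratins make up most of this sum. Over the 12 HPDE libraries KRT5 spanned 308 to 1869, KRT19 317 to 1140, KRT8 158 to 674, KRT7 587 to 1161 and KRT18 119 to 299 FPKM. EPCAM stayed between 148 and 192 FPKM and CDH1 between 44.9 and 56.6 FPKM. The part of the duct markers in the HPDE results was not tested. In HPNE the mesenchymal markers summed to between 9164 and 12376 FPKM with residual medium, 10366 and 12340 with PANC-1 vesicles and 8537 and 10446 with PPCL-68 vesicles, ranges that overlap. In HPDE the mesenchymal markers summed to between 103 and 121 FPKM with residual medium, 94.3 and 105 with PANC-1 and 132 and 152 with PPCL-68 vesicles. In bulk RNA, fewer cells that express a gene and less RNA per cell cannot be told apart.

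**Figure D1:**
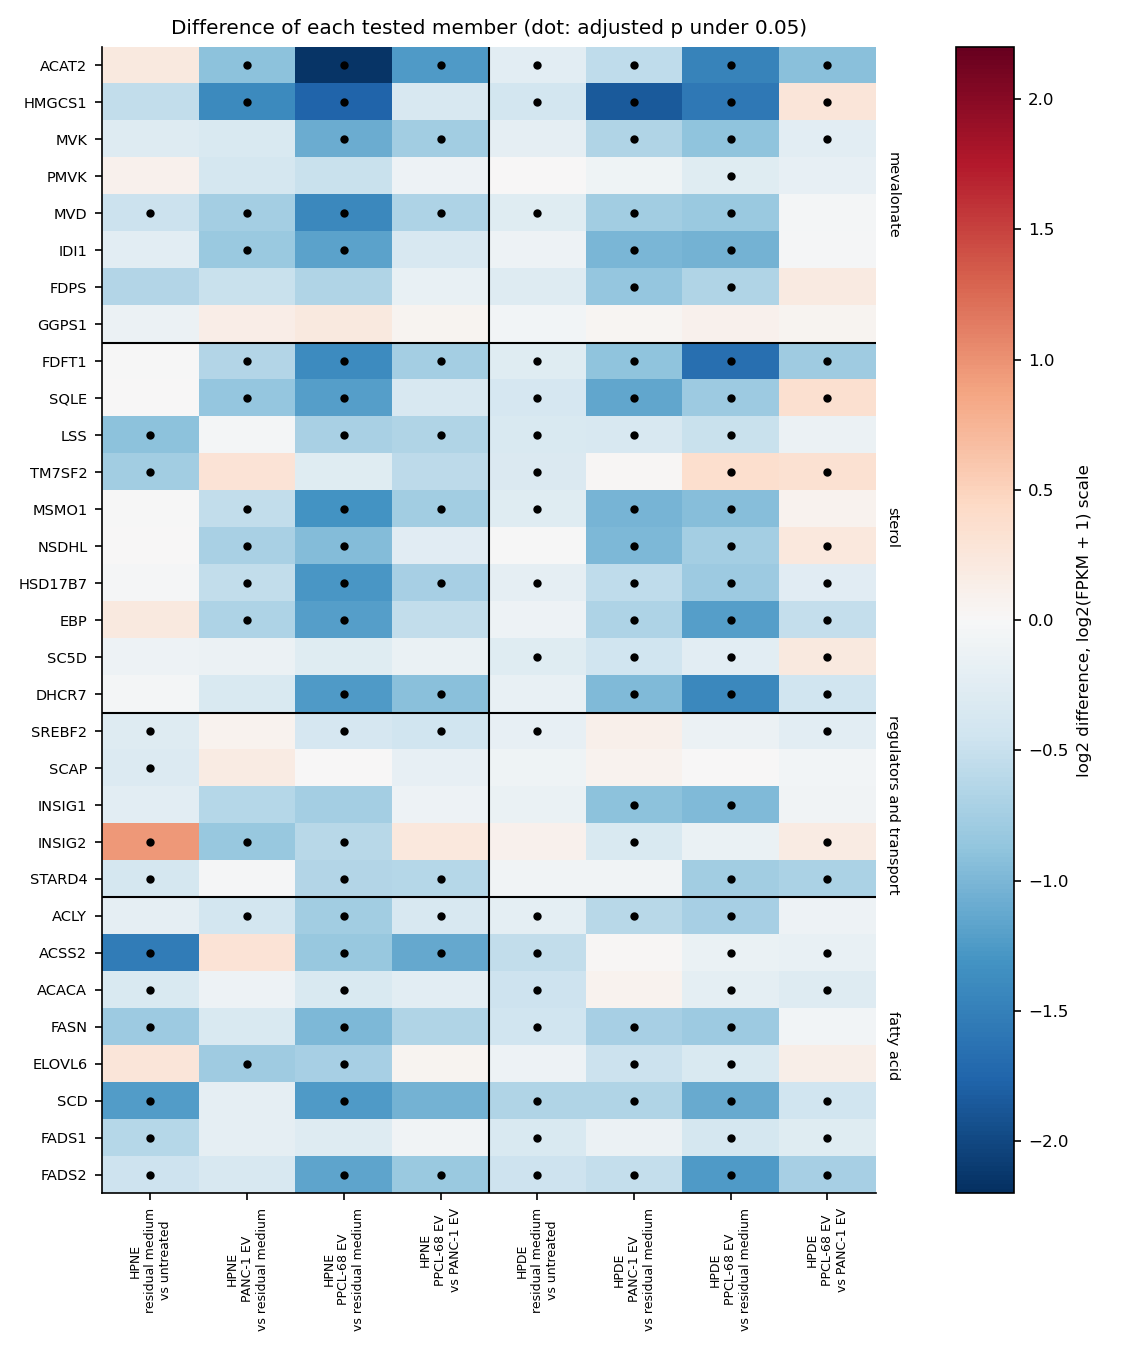
Log2 difference of the 31 tested members (rows, by role) in 4 comparisons for each line (columns), on the log2(FPKM + 1) scale, blue for lower and red for higher in the first-named group; dots mark an adjusted p under 0.05. The 2 columns of PPCL-68 vesicles against residual medium are blue in nearly all rows, with 23 members lower in HPNE and 26 in HPDE, and the regulators SREBF2 and SCAP are pale.

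The mevalonate enzymes turn acetyl-CoA into isoprenoid units. The largest fall of any member against residual medium was that of HMGCS1 with PANC-1 vesicles in both lines and that of ACAT2 with PPCL-68 vesicles in HPNE, both enzymes of this role. With PPCL-68 vesicles in HPDE it was that of the sterol enzyme FDFT1 (log2 difference -1.66). Of 8 tested, 4 fell in HPNE with PANC-1 vesicles, 5 in HPNE with PPCL-68, 6 in HPDE with PANC-1 and 7 in HPDE with PPCL-68, and none rose. For PANC-1 and PPCL-68 vesicles, 10.3% and 19.7% of all genes were lower in HPNE and 35.1% and 36.4% in HPDE. Without the libraries apart the HPNE counts were 7 lower and 1 higher with PANC-1 and 7 lower with PPCL-68, beside 31.0% and 37.5% of all genes lower. HMGCS1 (ENSG00000112972, hg19 chr5:43289497-43313614, minus strand), which condenses acetyl-CoA with acetoacetyl-CoA at the head of the pathway, had 44.8, 46.4 and 45.7 FPKM untreated and 28.6, 28.2 and 37.3 FPKM with residual medium in HPNE. It had 24.3, 9.70 and 5.55 FPKM with PANC-1 vesicles and 10.2, 7.25 and 8.14 FPKM with PPCL-68 vesicles. Values are given in order of replicate number here and throughout. Every HPNE vesicle library lay below every library of the 2 controls, and PANC-1 replicate 1, one of the libraries apart, was the highest of the 6. HMGCS1 in HPDE had 90.4, 99.1 and 97.1 FPKM untreated and 64.8, 76.3 and 76.1 FPKM with residual medium. The vesicle libraries held 20.2, 18.9 and 19.2 FPKM for PANC-1 and 22.3, 22.9 and 25.6 FPKM for PPCL-68. The 4 HPDE groups did not overlap, and the 6 vesicle libraries lay far below residual medium, at group means of 26.8% of its level with PANC-1 and 32.6% with PPCL-68 vesicles. HMGCS1 fell in HPDE with PANC-1 vesicles (log2 difference -1.84, SE 0.07, adjusted p 2.72e-11) and under PPCL-68 vesicles (log2 difference -1.57, SE 0.07, adjusted p 7.92e-11). It fell in HPNE with PPCL-68 vesicles (log2 difference -1.76, SE 0.36, adjusted p 0.00342) and with PANC-1 vesicles (log2 difference -1.41, SE 0.36, adjusted p 0.0178), the last call being lost without HPNE PANC-1 EV replicate 2 (adjusted p 0.0596).

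IDI1 (ENSG00000067064, hg19 chr10:1085848-1095110, minus strand), which interconverts the 2 isoprenoid building blocks, had 49.8, 54.8 and 51.7 FPKM untreated and 42.9, 44.4 and 45.2 FPKM with residual medium in HPNE. PANC-1 vesicles gave 33.8, 27.04 and 16.1 FPKM and PPCL-68 vesicles 22.2, 17.3 and 17.8 FPKM. Its HPNE vesicle libraries all lay below the residual medium libraries, and the 2 vesicle groups overlapped. The HPDE libraries had 35.05, 32.9 and 33.2 FPKM untreated and 30.6, 30.98 and 32.1 FPKM with residual medium. After PANC-1 vesicles it stood at 15.7, 16 and 13.4 FPKM, and after PPCL-68 vesicles at 14.9, 16.04 and 13.2 FPKM. All 6 HPDE vesicle libraries held under 17 FPKM and all 6 control libraries over 30, with the 2 vesicle groups again overlapping. IDI1 fell in HPNE with PANC-1 (-0.82, adjusted p 0.0149) and PPCL-68 vesicles (-1.18, adjusted p 0.00135) and in HPDE with PANC-1 (-1.01, adjusted p 2.1e-08) and PPCL-68 vesicles (-1.04, adjusted p 8.57e-09).

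ACAT2, which makes acetoacetyl-CoA, fell furthest of the role with PPCL-68 vesicles in HPNE, where the libraries held 19.6, 19.1 and 14.3 FPKM with residual medium and 2.84, 3.31 and 3.26 FPKM with the vesicles (log2 difference -2.16, SE 0.18, adjusted p 2.86e-05). With PANC-1 vesicles ACAT2 held 8.43, 10.8 and 7.59 FPKM in HPNE, between the other 2 groups and overlapping neither (-0.91, adjusted p 0.00515). The order was the same in HPDE, with 21.2, 23.3 and 21.6 FPKM in residual medium, 14.02, 16.1 and 13.99 FPKM after PANC-1 and 7.40, 6.81 and 7.77 FPKM after PPCL-68 vesicles. ACAT2 fell in HPDE with PPCL-68 vesicles (-1.47, adjusted p 7.68e-11) and less with PANC-1 vesicles (-0.55, adjusted p 2.45e-06). Its opposite-strand neighbour SOD2 ranged from 29.9 to 590.3 FPKM over the libraries, and its part in these values was not tested. MVD, which decarboxylates mevalonate diphosphate, held 31.6, 32.3 and 32.7 FPKM with residual medium and 12.7, 10.7 and 10.97 FPKM with PPCL-68 vesicles in HPNE (log2 difference -1.42, SE 0.12, adjusted p 3.56e-05). GGPS1, which makes geranylgeranyl diphosphate on a branch away from sterols, held 10.5 to 14.2 FPKM in all 24 libraries and passed the threshold in none of the 12 comparisons within a line. PMVK, the phosphomevalonate kinase, fell with PPCL-68 vesicles in HPDE (-0.27, adjusted p 0.00633) and with all libraries passed in no other comparison with residual medium. It became a fall in HPNE with PANC-1 without HPNE residual medium replicate 3 (adjusted p 0.0143, log2 difference -0.61) and with PPCL-68 without HPNE residual medium replicate 3 (adjusted p 0.00493, log2 difference -0.71), the library apart of its group, and in HPDE with PANC-1 without HPDE PANC-1 EV replicate 3 (adjusted p 0.0422, log2 difference -0.18). MVK, the mevalonate kinase, fell in HPNE with PPCL-68 (-1.10, adjusted p 0.000201) and in HPDE with PANC-1 (-0.66, adjusted p 9.52e-07) and PPCL-68 vesicles (-0.89, adjusted p 3.06e-08), and FDPS, which makes farnesyl diphosphate, fell in HPDE with both (-0.85, adjusted p 1.35e-05 and -0.66, adjusted p 0.000112).

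**Figure D2:**
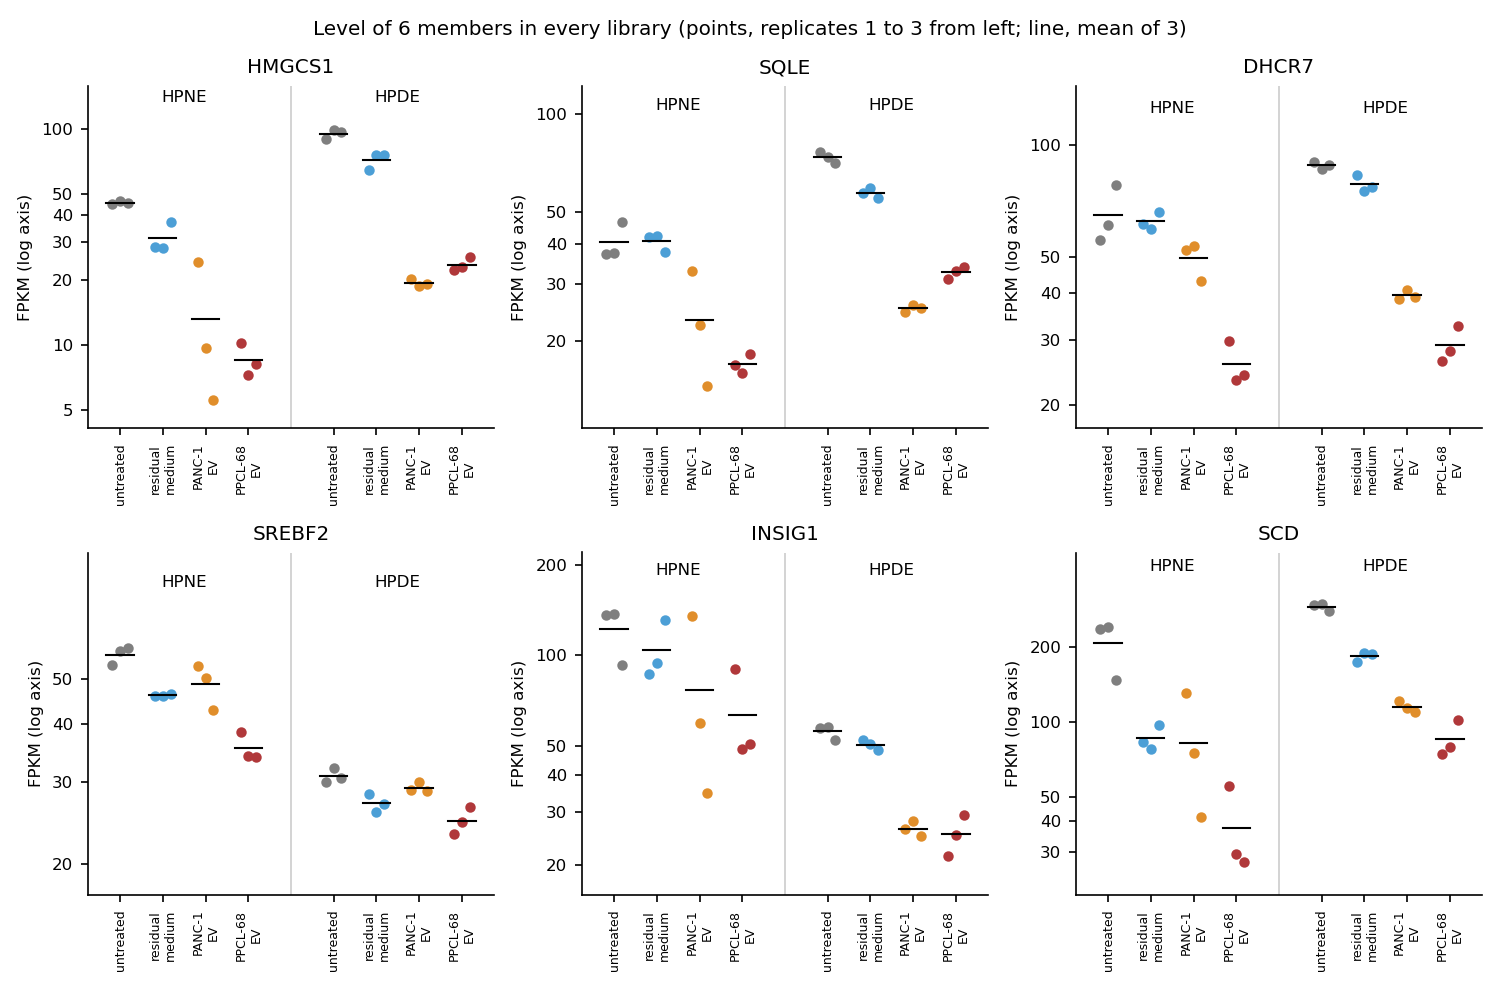
FPKM (log axis) of 6 members in each of the 24 libraries, by line and treatment; points are libraries, in order of replicate from left to right, and the line is the mean of 3. HMGCS1 in HPDE falls from above 64 FPKM with residual medium to under 26 FPKM in all 6 vesicle libraries, while SREBF2 in the same line stays between 23.2 and 32.1 FPKM, and the HPNE vesicle replicates 1 lie above the other 2 for INSIG1 and SCD.

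The sterol enzymes carry squalene to cholesterol, and 10 of the 11 were tested. In HPNE 6 fell with PANC-1 and 8 with PPCL-68 vesicles, and in HPDE 9 fell with each source, TM7SF2 being the 1 that did not. Beside these counts, for PANC-1 and PPCL-68 vesicles, 10.3% and 19.7% of all genes were lower in HPNE and 35.1% and 36.4% in HPDE. Without the libraries apart the HPNE counts were 7 and 9, beside 31.0% and 37.5% of all genes lower. SQLE, the squalene epoxidase, had 37.2, 37.6 and 46.7 FPKM untreated and 41.9, 42.4 and 37.8 FPKM with residual medium in HPNE. The treated libraries gave 32.9, 22.4 and 14.6 FPKM for PANC-1 and 16.9, 15.9 and 18.4 FPKM for PPCL-68 vesicles. PANC-1 replicate 1 was nearest the controls, and all 6 vesicle libraries lay below the 6 control libraries. In HPDE, SQLE held 76.5, 74.2 and 71.1 FPKM untreated and 57.2, 59.3 and 55.5 FPKM with residual medium. Values with vesicles were 24.6, 25.9 and 25.3 FPKM for PANC-1 and 31.2, 32.9 and 33.96 FPKM for PPCL-68. The 4 HPDE groups did not overlap, and the PANC-1 libraries were the lowest, not the PPCL-68 libraries. SQLE fell in HPDE with PANC-1 (log2 difference -1.15, SE 0.04, adjusted p 5.8e-11) and under PPCL-68 vesicles (log2 difference -0.79, SE 0.04, adjusted p 1.57e-09). It fell in HPNE with PPCL-68 (log2 difference -1.21, SE 0.22, adjusted p 0.00165) and with PANC-1 vesicles (log2 difference -0.85, SE 0.22, adjusted p 0.0172), the PANC-1 call being lost without HPNE residual medium replicate 1 or 2 (adjusted p 0.0597 to 0.0598).

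LSS (ENSG00000160285, hg19 chr21:47608055-47648738, minus strand), which closes the first sterol ring system, had 51.4, 53.5 and 42.97 FPKM untreated and 26.4, 26.7 and 24.6 FPKM with residual medium in HPNE. It had 31.4, 25.8 and 19.4 FPKM with PANC-1 vesicles and 17.8, 14.7 and 14.1 FPKM with PPCL-68 vesicles. Its HPNE residual medium and PANC-1 libraries overlapped and did not pass the threshold (log2 difference -0.04, SE 0.15, adjusted p 0.852), while the PPCL-68 libraries lay below both (log2 difference -0.71, SE 0.15, adjusted p 0.00456). The HPDE libraries of LSS held 35.2, 34.99 and 33.6 FPKM untreated and 28.9, 25.3 and 27.1 FPKM with residual medium. The vesicle libraries held 20.5, 21.04 and 21.5 FPKM for PANC-1 and 17.7, 19.2 and 20.3 FPKM for PPCL-68. Here both sources lay below residual medium, PANC-1 (-0.35, adjusted p 7.76e-05) as well as PPCL-68 (-0.49, adjusted p 2.51e-06).

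DHCR7 (ENSG00000172893, hg19 chr11:71139239-71163914, minus strand), the reductase of the last step to cholesterol, had 55.7, 61.01 and 78.2 FPKM untreated and 61.4, 59.7 and 66.2 FPKM with residual medium in HPNE. PANC-1 vesicles gave 52.4, 53.7 and 43.1 FPKM and PPCL-68 vesicles 29.7, 23.4 and 24.1 FPKM. The PANC-1 libraries lay just under the residual medium libraries, without passing the threshold (log2 difference -0.33, SE 0.14, adjusted p 0.1), and passed it without the libraries apart (-0.33, adjusted p 0.00937). PPCL-68 vesicles took DHCR7 to 41.2% of the residual medium level in HPNE (log2 difference -1.25, SE 0.14, adjusted p 0.000106). In HPDE it held 90.3, 86.3 and 88.5 FPKM untreated and 83.4, 75.6 and 77.2 FPKM with residual medium. After PANC-1 vesicles it stood at 38.7, 40.9 and 39.1 FPKM, and after PPCL-68 vesicles at 26.2, 27.97 and 32.7 FPKM. No 2 of the HPDE groups overlapped, PPCL-68 being lowest (log2 difference -1.42, SE 0.06, adjusted p 1.77e-10) and PANC-1 next (log2 difference -0.97, SE 0.06, adjusted p 1.53e-08).

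FDFT1, the squalene synthase that commits isoprenoids to sterols, had the largest fall of the role with PPCL-68 vesicles in HPDE, from 213, 221 and 212 FPKM with residual medium to 66.2, 66.3 and 69.9 FPKM (log2 difference -1.66, SE 0.05, adjusted p 2.78e-12). It held 114, 125 and 112 FPKM with PANC-1 vesicles (-0.88, adjusted p 1.63e-09), so the 3 groups did not overlap. In HPNE it fell with PPCL-68 vesicles (-1.39, adjusted p 9.12e-05) and with PANC-1 vesicles (-0.65, adjusted p 0.011). MSMO1, the sterol-C4-methyl oxidase, fell from 101, 107 and 101 FPKM with residual medium to 51.9, 51.6 and 48.2 FPKM with PANC-1 vesicles in HPDE (-1.01, adjusted p 7.66e-10). In HPNE with PANC-1 vesicles MSMO1 also fell (-0.55, adjusted p 0.0189), a call lost without HPNE residual medium replicate 1 or 2 (adjusted p 0.0534 to 0.0573). NSDHL, which acts in the same demethylation, fell from 44.2, 43.03 and 45.1 to 21.4, 21.8 and 21.9 FPKM in that comparison (-0.99, adjusted p 4.19e-10). EBP, the sterol isomerase, fell in HPDE with PPCL-68 vesicles from 51.1, 46.4 and 46.01 to 18.9, 21.8 and 19.9 FPKM (-1.21, adjusted p 6.43e-10). TM7SF2, which reduces the sterol C14 double bond, rose in 1 of the 4 comparisons with residual medium, HPDE with PPCL-68 vesicles, where no other member rose. It went from 3.62, 3.99 and 3.97 FPKM to 4.69, 5.45 and 5.73 FPKM there (log2 difference 0.37, SE 0.08, adjusted p 0.00065). SC5D, the lathosterol desaturase, fell in HPDE with PANC-1 (-0.44, adjusted p 4.88e-06) and PPCL-68 vesicles (-0.23, adjusted p 0.00135), and did not pass in HPNE, at log2 differences of -0.12 and -0.26. HSD17B7 fell in all 4 comparisons, in HPNE with PANC-1 vesicles by a call lost without HPNE PANC-1 EV replicate 3 or HPNE residual medium replicate 1 or 2 (adjusted p 0.0784 to 0.108), as was that of EBP without HPNE PANC-1 EV replicate 1 or 3 or HPNE residual medium replicate 1 or 2 (adjusted p 0.0564 to 0.0829).

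**Figure D3:**
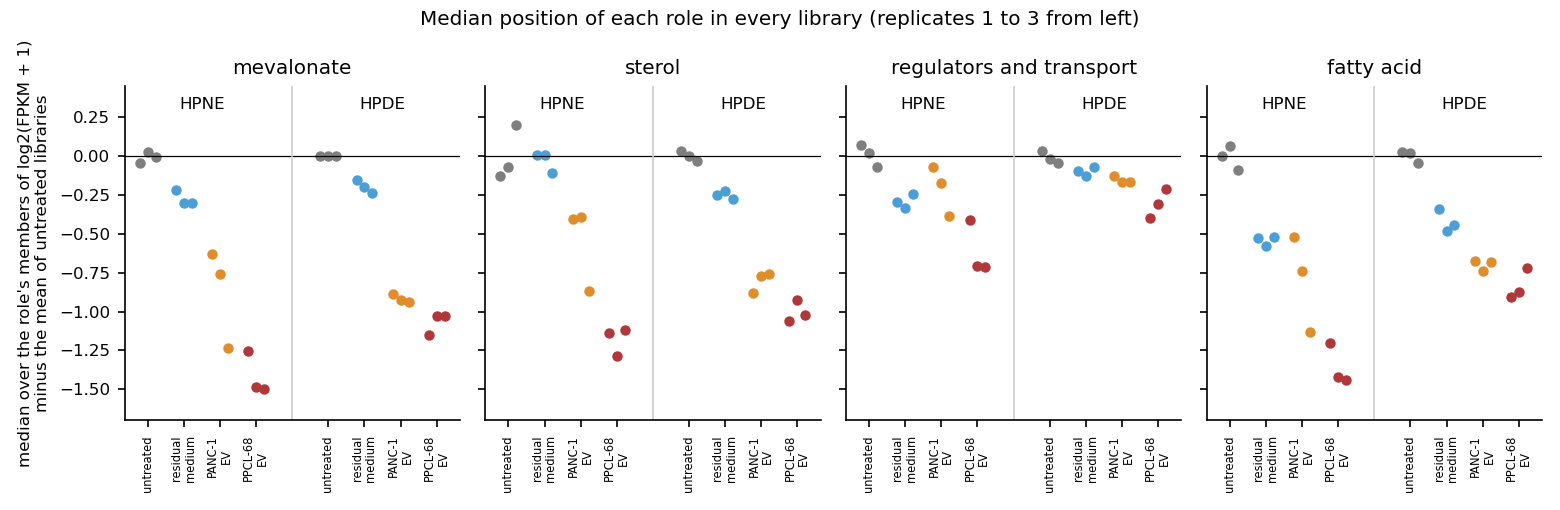
Median over the members of each role of log2(FPKM + 1) minus the mean of the untreated libraries of the line, 1 point for each library, in order of replicate from left to right. The PPCL-68 libraries of HPNE reach medians of -1.26 to -1.50 for the mevalonate role, and the regulators and transport role moves least, to between -0.07 and -0.71 in the vesicle libraries.

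The 5 regulators and transport genes had median log2 differences nearer 0 than the enzyme roles, at -0.03 and -0.60 in HPNE and -0.07 and -0.14 in HPDE for PANC-1 and PPCL-68 vesicles. Against residual medium 1 and 3 fell in HPNE with PANC-1 and PPCL-68 vesicles, 2 and 2 fell in HPDE, and none rose. Of all genes 10.3% and 19.7% were lower in HPNE and 35.1% and 36.4% in HPDE, near the HPDE shares of this role. Without the libraries apart 2 fell and 1, SCAP, rose in HPNE with PANC-1, and 4 fell with PPCL-68, beside 31.0% and 37.5% of all genes lower. SREBF2 (ENSG00000198911, hg19 chr22:42229109-42303312, plus strand), the SREBP gene that directs sterol synthesis, had 53.6, 57.2 and 58.3 FPKM untreated and 45.8, 45.98 and 46.3 FPKM with residual medium in HPNE. The treated libraries gave 53.3, 50.3 and 42.9 FPKM for PANC-1 and 38.5, 34.1 and 34 FPKM for PPCL-68 vesicles. PANC-1 replicates 1 and 2 lay above the residual medium libraries and replicate 3 below them (log2 difference 0.08, SE 0.09, adjusted p 0.547), and all 3 PPCL-68 libraries lay below (log2 difference -0.37, SE 0.09, adjusted p 0.00813). SREBF2 in HPDE held 30.1, 32.1 and 30.6 FPKM untreated and 28.3, 25.9 and 26.97 FPKM with residual medium. Values with vesicles were 28.9, 30.02 and 28.7 FPKM for PANC-1 and 23.2, 24.7 and 26.5 FPKM for PPCL-68. Neither source passed the threshold against residual medium in HPDE: PANC-1 libraries lay slightly above it (log2 difference 0.11, SE 0.05, adjusted p 0.0822) and PPCL-68 libraries overlapped it (log2 difference -0.12, SE 0.05, adjusted p 0.052). The first became a rise without HPDE residual medium replicate 1 (adjusted p 0.0429) and with size factors in place of library totals (0.14, adjusted p 0.0267), and the second became a fall without HPDE PPCL-68 EV replicate 3 or HPDE residual medium replicate 2 (adjusted p 0.0123 to 0.0323). SCAP, the escort protein, held 11.6 to 13.7 FPKM in HPDE and 16.96 to 25.1 FPKM in HPNE, and passed in none of the 4 comparisons with residual medium.

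INSIG1 (ENSG00000186480, hg19 chr7:155089486-155101945, plus strand), the retention protein whose own gene is a target of the SREBPs, had 136, 137 and 92.6 FPKM untreated and 86.3, 94.3 and 130.3 FPKM with residual medium in HPNE. It had 135, 59.3 and 34.9 FPKM with PANC-1 vesicles and 90.1, 48.8 and 50.7 FPKM with PPCL-68 vesicles. The libraries that stood apart were also the odd ones for INSIG1: PANC-1 replicate 1 and PPCL-68 replicate 1 were the highest of their groups, as was residual medium replicate 3, and untreated replicate 3 was the lowest of its group. With all libraries neither source passed, PANC-1 (log2 difference -0.63, SE 0.41, adjusted p 0.271) or PPCL-68 (log2 difference -0.74, SE 0.41, adjusted p 0.171). Without the 4 libraries both passed, at -0.97, adjusted p 0.000999 for PANC-1 and -0.85, adjusted p 0.00192 for PPCL-68. The PANC-1 call was also gained without HPNE PANC-1 EV replicate 1 (adjusted p 0.0316). In HPDE INSIG1 held 57.1, 57.8 and 52.3 FPKM untreated and 52.1, 50.8 and 48.3 FPKM with residual medium. The vesicle libraries held 26.3, 28.1 and 24.9 FPKM for PANC-1 and 21.5, 25.2 and 29.4 FPKM for PPCL-68. The 6 HPDE vesicle libraries all lay below 30 FPKM and the 6 control libraries above 48, and the 2 sources overlapped, with a fall for PANC-1 (log2 difference -0.90, SE 0.08, adjusted p 4.23e-07) and for PPCL-68 (log2 difference -0.97, SE 0.08, adjusted p 1.26e-07).

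INSIG2, the other retention protein, had an order of its own in HPNE, where residual medium libraries held 9.65, 8.82 and 11.4 FPKM, above 5.02, 4.63 and 4.22 FPKM untreated. Both vesicle groups lay below residual medium, with 6.63, 5.04 and 3.92 FPKM for PANC-1 (-0.84, adjusted p 0.00446) and 7.30, 5.97 and 5.39 FPKM for PPCL-68 (-0.60, adjusted p 0.0115). The PPCL-68 libraries lay above the untreated libraries and the PANC-1 libraries on both sides of them, replicate 3 being below all 3. Against untreated neither source passed (log2 difference 0.12 for PANC-1 and 0.35 for PPCL-68). With size factors in place of library totals the PPCL-68 value became a rise (0.43, adjusted p 0.0383).

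STARD4 (ENSG00000164211, hg19 chr5:110831731-110848288, minus strand), a soluble carrier that moves cholesterol between membranes, had 36.4, 37.6 and 34.4 FPKM untreated and 27.9, 28.4 and 26.2 FPKM with residual medium in HPNE. PANC-1 vesicles gave 32.1, 28.7 and 21.1 FPKM and PPCL-68 vesicles 18.7, 16.4 and 16.4 FPKM. The PANC-1 libraries spread on both sides of the residual medium libraries (log2 difference -0.03, SE 0.13, adjusted p 0.877) and the PPCL-68 libraries lay below all of them (log2 difference -0.65, SE 0.13, adjusted p 0.00265). HPDE libraries held 29.98, 27.2 and 26.2 FPKM untreated and 25.1, 26.5 and 26.9 FPKM with residual medium. After PANC-1 vesicles it stood at 25.3, 24.6 and 24.6 FPKM, and after PPCL-68 vesicles at 14.9, 14.3 and 15.5 FPKM. STARD4 in HPDE overlapped residual medium with PANC-1 vesicles (log2 difference -0.07, SE 0.05, adjusted p 0.239) and fell with PPCL-68 vesicles, to 56.97% of that level (log2 difference -0.77, SE 0.05, adjusted p 1.01e-08).

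Of the 8 fatty acid genes, 2 fell in HPNE with PANC-1 vesicles, 7 in HPNE with PPCL-68, 5 in HPDE with PANC-1 and 8 in HPDE with PPCL-68, and none rose. Beside these counts, 10.3% and 19.7% of all genes were lower in HPNE and 35.1% and 36.4% in HPDE, for PANC-1 and PPCL-68 vesicles. Without the libraries apart the HPNE counts were 7 and 8, beside 31.0% and 37.5% of all genes lower. ACLY (ENSG00000131473, hg19 chr17:40023161-40086795, minus strand), which makes cytosolic acetyl-CoA from citrate, had 119, 125 and 133 FPKM untreated and 111, 115 and 103 FPKM with residual medium in HPNE. The treated libraries gave 86.4, 84.5 and 76.7 FPKM for PANC-1 and 59.01, 65.4 and 68.4 FPKM for PPCL-68 vesicles. No vesicle library reached the lowest residual medium library, and PPCL-68 (-0.76, adjusted p 0.000141) lay below PANC-1 (-0.41, adjusted p 0.00866). The HPDE values were 131, 124 and 125 FPKM untreated and 109, 112 and 108 FPKM with residual medium. Values with vesicles were 73.4, 67.8 and 72.9 FPKM for PANC-1 and 63.1, 63.9 and 70.4 FPKM for PPCL-68. ACLY fell there to 65.3% of residual medium with PANC-1 (-0.61, adjusted p 9.21e-08) and to 60.2% with PPCL-68 vesicles (-0.73, adjusted p 9.01e-09).

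FASN (ENSG00000169710, hg19 chr17:80036214-80056208, minus strand), the fatty acid synthase, had 96.5, 109.9 and 81.9 FPKM untreated and 52.97, 50.3 and 59.5 FPKM with residual medium in HPNE. It had 71.5, 38.03 and 28.6 FPKM with PANC-1 vesicles and 32.2, 23.8 and 24.8 FPKM with PPCL-68 vesicles. PANC-1 replicate 1 lay above all residual medium libraries and the other 2 below them, and the group did not pass (log2 difference -0.33, SE 0.26, adjusted p 0.362); it passed without the libraries apart (-0.63, adjusted p 0.000755) and without HPNE PANC-1 EV replicate 1 (adjusted p 0.0202). PPCL-68 vesicles lowered FASN in HPNE (log2 difference -0.99, SE 0.26, adjusted p 0.012). In HPDE it held 214, 222 and 205 FPKM untreated and 176, 144 and 154 FPKM with residual medium. The vesicle libraries held 93.5, 92.1 and 96.1 FPKM for PANC-1 and 79.7, 91.5 and 99.8 FPKM for PPCL-68. The 2 vesicle groups overlapped each other and lay well below residual medium, for PANC-1 (log2 difference -0.74, SE 0.08, adjusted p 1.43e-06) as for PPCL-68 (log2 difference -0.80, SE 0.08, adjusted p 4.33e-07).

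SCD (ENSG00000099194, hg19 chr10:102106881-102124591, plus strand), the desaturase that makes oleate, had 236, 239 and 146 FPKM untreated and 83.2, 77.8 and 97.4 FPKM with residual medium in HPNE. PANC-1 vesicles gave 131, 74.96 and 41.6 FPKM and PPCL-68 vesicles 55.5, 29.7 and 27.4 FPKM. PANC-1 libraries ranged from below to above the residual medium libraries (log2 difference -0.21, SE 0.37, adjusted p 0.709), again with replicate 1 highest, and the PPCL-68 libraries lay below them (log2 difference -1.24, SE 0.37, adjusted p 0.0217). The PPCL-68 call was lost without HPNE PPCL-68 EV replicate 2 or 3 or HPNE residual medium replicate 1 (adjusted p 0.0548 to 0.0785), and was -1.46, adjusted p 0.000101 without the libraries apart. The 12 HPDE libraries held 294, 297 and 276 FPKM untreated and 173, 189 and 187 FPKM with residual medium. After PANC-1 vesicles it stood at 121, 114 and 109 FPKM, and after PPCL-68 vesicles at 74.1, 79.5 and 102 FPKM. All 4 HPDE groups were separate, and SCD fell with PANC-1 (-0.67, adjusted p 1.26e-05) and with PPCL-68 vesicles (-1.11, adjusted p 5.15e-08).

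FADS2 (ENSG00000134824, hg19 chr11:61560452-61634826, plus strand), the delta-6 desaturase of polyunsaturated fatty acids, had 145, 149.8 and 144 FPKM untreated and 113, 107 and 102 FPKM with residual medium in HPNE. The treated libraries gave 93.4, 91.6 and 69.1 FPKM for PANC-1 and 57.5, 43.3 and 42.8 FPKM for PPCL-68 vesicles. Both vesicle groups lay below residual medium, PPCL-68 past the threshold (log2 difference -1.16, SE 0.13, adjusted p 0.000148) and PANC-1 not (log2 difference -0.34, SE 0.13, adjusted p 0.0815), though PANC-1 passed without the libraries apart (-0.46, adjusted p 0.00328). In HPDE FADS2 held 79.4, 79.03 and 75.9 FPKM untreated and 62.1, 53.2 and 54.9 FPKM with residual medium. Values with vesicles were 39.1, 40.9 and 37.7 FPKM for PANC-1 and 21.6, 22.2 and 26.7 FPKM for PPCL-68. The HPDE groups did not overlap, with falls for PANC-1 (-0.52, adjusted p 2.17e-05) and PPCL-68 vesicles (-1.24, adjusted p 1.91e-09). FADS1, the delta-5 desaturase that overlaps it on the other strand, passed against residual medium only in HPDE with PPCL-68 vesicles (-0.39, adjusted p 5.93e-05) when all libraries were used. ELOVL6, which elongates palmitate, fell in HPNE with PANC-1 vesicles from 13.3, 12.6 and 9.29 to 7.08, 6.51 and 5.45 FPKM (-0.78, adjusted p 0.00334), 1 of the 2 fatty acid genes that did. ACSS2 and ACACA fell in HPDE with PPCL-68 vesicles (-0.15, adjusted p 0.0465 and -0.21, adjusted p 0.028), by calls lost without HPDE PPCL-68 EV replicate 1 or HPDE residual medium replicate 1 or 2 (adjusted p 0.0876 to 0.242) and without HPDE PPCL-68 EV replicate 1 or 2 or HPDE residual medium replicate 2 or 3 (adjusted p 0.0686 to 0.147). In HPNE with PPCL-68 vesicles ACSS2 fell further (-0.83, adjusted p 0.0139), lost without HPNE PPCL-68 EV replicate 2 (adjusted p 0.0565), and ACACA fell (-0.34, adjusted p 0.035), lost without HPNE PPCL-68 EV replicate 2 or 3 or HPNE residual medium replicate 1, 2 or 3 (adjusted p 0.0512 to 0.109).

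The residual medium itself was set against fresh medium to measure the control itself. In HPNE 12 members fell and 1, INSIG2, rose, with a median log2 difference of -0.23, while 43.9% of all genes were called and 25.2% were lower. With size factors in place of library totals, 7 fell and 2 rose, and the median over all genes moved from -0.05 to 0.06. In HPDE 18 fell and 0 rose, also with a median of -0.23, against 20.0% of all genes called, 10.1% lower and 9.93% higher. Of the fatty acid genes 6 of 8 fell in HPNE and 7 of 8 in HPDE, and of the sterol enzymes 2 of 10 and 7 of 10. ACSS2, which makes acetyl-CoA from acetate, went from 32.6, 33.5 and 28 to 10.9, 8.52 and 11.1 FPKM in HPNE (log2 difference -1.54, SE 0.23, adjusted p 0.000642) and from 27.3, 28.8 and 26.1 to 19.4, 18.5 and 17.6 FPKM in HPDE (log2 difference -0.54, SE 0.06, adjusted p 2.84e-05). SCD fell in HPDE (-0.66, adjusted p 0.000141) and in HPNE (-1.23, adjusted p 0.022), the HPNE call being lost without HPNE residual medium replicate 1 or 2 or HPNE untreated replicate 1 or 2 (adjusted p 0.0617 to 0.0782). FASN fell likewise in HPDE (-0.44, adjusted p 0.00146) and in HPNE (-0.81, adjusted p 0.0289), the latter lost without HPNE residual medium replicate 1 or 2 or HPNE untreated replicate 1 or 2 (adjusted p 0.076 to 0.1). LSS fell in both lines, by a log2 difference of -0.90 in HPNE (adjusted p 0.00144) and -0.34 in HPDE (adjusted p 0.000864).

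The remaining changes with residual medium spanned all roles. TM7SF2 fell in HPNE (-0.76, adjusted p 0.00442), as did FADS1 (-0.63, adjusted p 0.0404), the FADS1 call being lost without HPNE residual medium replicate 1 or 2 or HPNE untreated replicate 1 or 2 (adjusted p 0.104 to 0.145). INSIG2 rose in HPNE (log2 difference 0.96, SE 0.16, adjusted p 0.0012), and its HPDE libraries, 10.97, 8.72 and 9.29 FPKM untreated and 10.7, 11.1 and 9.45 FPKM with residual medium, overlapped. In HPDE ACACA, the carboxylase that opens fatty acid synthesis, fell (-0.45, adjusted p 0.00146), and FADS1 fell (-0.33, adjusted p 0.00206). HMGCS1 fell in HPDE (-0.40, adjusted p 0.000955) and did not pass in HPNE (-0.54, adjusted p 0.241), although its 3 residual medium libraries lay below all untreated ones. SREBF2 fell in HPNE (-0.28, adjusted p 0.0248) and HPDE (-0.19, adjusted p 0.022), calls lost without HPNE residual medium replicate 1 or 2 or HPNE untreated replicate 2 or 3 (adjusted p 0.0606 to 0.0785) and without HPDE residual medium replicate 2 or 3 or HPDE untreated replicate 2 or 3 (adjusted p 0.0501 to 0.0852). STARD4 and FADS2 fell in HPNE (-0.38, adjusted p 0.0322 and -0.45, adjusted p 0.0203), calls lost without HPNE residual medium replicate 1, 2 or 3 or HPNE untreated replicate 1 or 2 (adjusted p 0.0633 to 0.0993) and without HPNE residual medium replicate 2 or HPNE untreated replicate 1 or 2 (adjusted p 0.0557 to 0.0659). The HPNE count of 13 dropped to 6 without untreated replicate 1 or residual medium replicate 1 and to 5 without untreated replicate 2 or residual medium replicate 2, and rose to 21, with 16 lower and 5 higher, without the 4 libraries apart, when 71.7% of all genes were called.

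Against untreated cells, whose libraries also enter the comparison above, the median differences were further below 0 than against residual medium. HPNE members numbered 21 lower with PANC-1 vesicles (median -0.62, 21.1% of all genes called, 11.5% lower and 9.61% higher) and 27 lower with PPCL-68 vesicles (median -1.19, 42.5% called, 23.8% lower). HPDE members numbered 27 lower with each source, with medians of -0.80 for PANC-1 (60.6% called, 34.4% lower) and -0.95 for PPCL-68 (66.3% called, 36.1% lower). No member rose in any of the 4 with library totals; with size factors INSIG2 rose in HPNE with PPCL-68 vesicles (0.43, adjusted p 0.0383). PPCL-68 vesicles took SCD to 18.1% of its untreated level in HPNE (log2 difference -2.47, SE 0.37, adjusted p 0.000448) and to 29.4% in HPDE (log2 difference -1.77, SE 0.09, adjusted p 3.34e-10). ACSS2 stood at 17.2% of untreated in HPNE with PPCL-68 vesicles (-2.37, adjusted p 2.65e-05) and 41.9% with PANC-1 vesicles (-1.24, adjusted p 0.00402). HMGCS1 stood at 20.3% of untreated in HPDE with PANC-1 vesicles (log2 difference -2.24, SE 0.07, adjusted p 2.34e-12), the deepest fall in that comparison. MVD fell in HPNE with PANC-1 (-1.22, adjusted p 0.000136) and with PPCL-68 vesicles (-1.89, adjusted p 2.38e-06). FDPS, the farnesyl diphosphate synthase, held only 3.41, 5.66 and 2.96 FPKM in untreated HPNE and 2.32, 0.906 and 0.692 FPKM with PANC-1 vesicles, and its call (-1.15, adjusted p 0.0114) was lost without HPNE PANC-1 EV replicate 2 or 3 or HPNE untreated replicate 2 (adjusted p 0.0512 to 0.0568).

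The HPNE count with PANC-1 vesicles was 11 without untreated replicate 2 or without PANC-1 replicate 3, and 26 without the 4 libraries apart, when 62.7% of all genes were called. Among the members shown by library, the calls of SCD, SQLE, FASN and STARD4 were each lost on leaving out any 1 of several libraries. SCD (-1.43, adjusted p 0.021) was lost without HPNE PANC-1 EV replicate 2 or 3 or HPNE untreated replicate 1 or 2 (adjusted p 0.0638 to 0.0832, log2 difference -1.44 to -1.02), and SQLE (-0.84, adjusted p 0.0202) without HPNE PANC-1 EV replicate 2 or 3 or HPNE untreated replicate 2 or 3 (adjusted p 0.0527 to 0.06, log2 difference -0.88 to -0.55). FASN (-1.14, adjusted p 0.0121) was lost without HPNE PANC-1 EV replicate 2 or HPNE untreated replicate 2 (adjusted p 0.0521 to 0.0563, log2 difference -1.06 to -1.04). STARD4 (-0.41, adjusted p 0.0414) was lost without HPNE PANC-1 EV replicate 2 or 3 or HPNE untreated replicate 1, 2 or 3 (adjusted p 0.052 to 0.134, log2 difference -0.45 to -0.24), and in HPDE with PANC-1 vesicles (-0.15, adjusted p 0.0195) without HPDE PANC-1 EV replicate 2 or 3 or HPDE untreated replicate 1 (adjusted p 0.0513 to 0.112).

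The 2 vesicle sources were compared directly, at the same number of vesicles per well. In HPNE 13 members were lower with PPCL-68 than with PANC-1 vesicles and 0 were higher, with a median log2 difference of -0.44, where 5.47% of all genes were called 3.22% were lower and 2.25% higher. In HPDE 13 were lower and 6 higher, with a median of -0.12, where 50.1% were called and 25.2% were lower; with size factors, as with the replicate block, 14 were lower and 5 higher. ACAT2 was lower with PPCL-68 vesicles in HPNE (log2 difference -1.25, SE 0.18, adjusted p 0.00434) and in HPDE (log2 difference -0.91, SE 0.06, adjusted p 4.42e-08). DHCR7 was lower in HPNE (-0.93, adjusted p 0.0052) and HPDE (-0.44, adjusted p 6.71e-05), as was FADS2 (-0.81, adjusted p 0.00878 and -0.72, adjusted p 1.88e-06). The HPNE call of FADS2 was lost without HPNE PPCL-68 EV replicate 2 (adjusted p 0.0501). STARD4 differed in HPNE (-0.62, adjusted p 0.0201) and in HPDE (-0.70, adjusted p 1.22e-07), where 25.3, 24.6 and 24.6 FPKM with PANC-1 vesicles stood against 14.9, 14.3 and 15.5 FPKM with PPCL-68. FDFT1 and EBP were lower with PPCL-68 vesicles in HPDE (-0.78, adjusted p 1.64e-08 and -0.53, adjusted p 9.56e-06).

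In HPDE 6 members were higher with PPCL-68 than with PANC-1 vesicles, beside 24.9% of all genes, and in HPNE none, beside 2.25%. The difference between the lines was not tested. The 6 in HPDE were SQLE (log2 difference 0.36, SE 0.04, adjusted p 1.68e-05), TM7SF2 (0.34, adjusted p 0.00222), HMGCS1 (0.27, adjusted p 0.00412), NSDHL (0.23, adjusted p 0.000809), SC5D (0.21, adjusted p 0.00393) and INSIG2 (0.19, adjusted p 0.0481), the INSIG2 call being lost without any 1 of the 6 libraries. HMGCS1 and SQLE, at the head and middle of the pathway, were thus lowest with PANC-1 vesicles in HPDE, and ACAT2, FDFT1, EBP and DHCR7 lowest with PPCL-68. The values of IDI1, MVD, INSIG1 and FASN for the 2 sources overlapped in HPDE and did not pass the threshold (-0.03, -0.05, -0.07 and -0.06).

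The HPNE count of the sources changed with the libraries used. The count of 13 fell to 2 without PPCL-68 replicate 2, to 3 without PPCL-68 replicate 3 or PANC-1 replicate 2 and to 6 without PANC-1 replicate 1, and rose to 20, with 19 lower and 1 higher, without the 4 libraries apart, when 36.5% of all genes were called. ACSS2 (-1.13, adjusted p 0.0186) and MSMO1 (-0.76, adjusted p 0.0148) were lower in HPNE, calls lost without HPNE PANC-1 EV replicate 1 or 2 or HPNE PPCL-68 EV replicate 2 or 3 (adjusted p 0.058 to 0.0933, log2 difference -1.09 to -0.91) and without HPNE PANC-1 EV replicate 2 or HPNE PPCL-68 EV replicate 2 or 3 (adjusted p 0.0618 to 0.0715, log2 difference -0.75 to -0.68). LSS (-0.66, adjusted p 0.0316) was lost without HPNE PANC-1 EV replicate 1 or 2 or HPNE PPCL-68 EV replicate 2 or 3 (adjusted p 0.0906 to 0.129, log2 difference -0.64 to -0.51). SREBF2 was lower with PPCL-68 in HPDE (-0.23, adjusted p 0.00222) and HPNE (-0.44, adjusted p 0.0186), the latter lost without HPNE PANC-1 EV replicate 1 or 2 or HPNE PPCL-68 EV replicate 2 or 3 (adjusted p 0.058 to 0.0935, log2 difference -0.42 to -0.38), as was the HPNE call of STARD4 (adjusted p up to 0.0941). ACLY (-0.36, adjusted p 0.04) was lost without any 1 of the 6 libraries, at log2 differences of -0.41 to -0.30, and when replicate numbers were fitted as a block (adjusted p 0.0643).

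**Figure D4:**
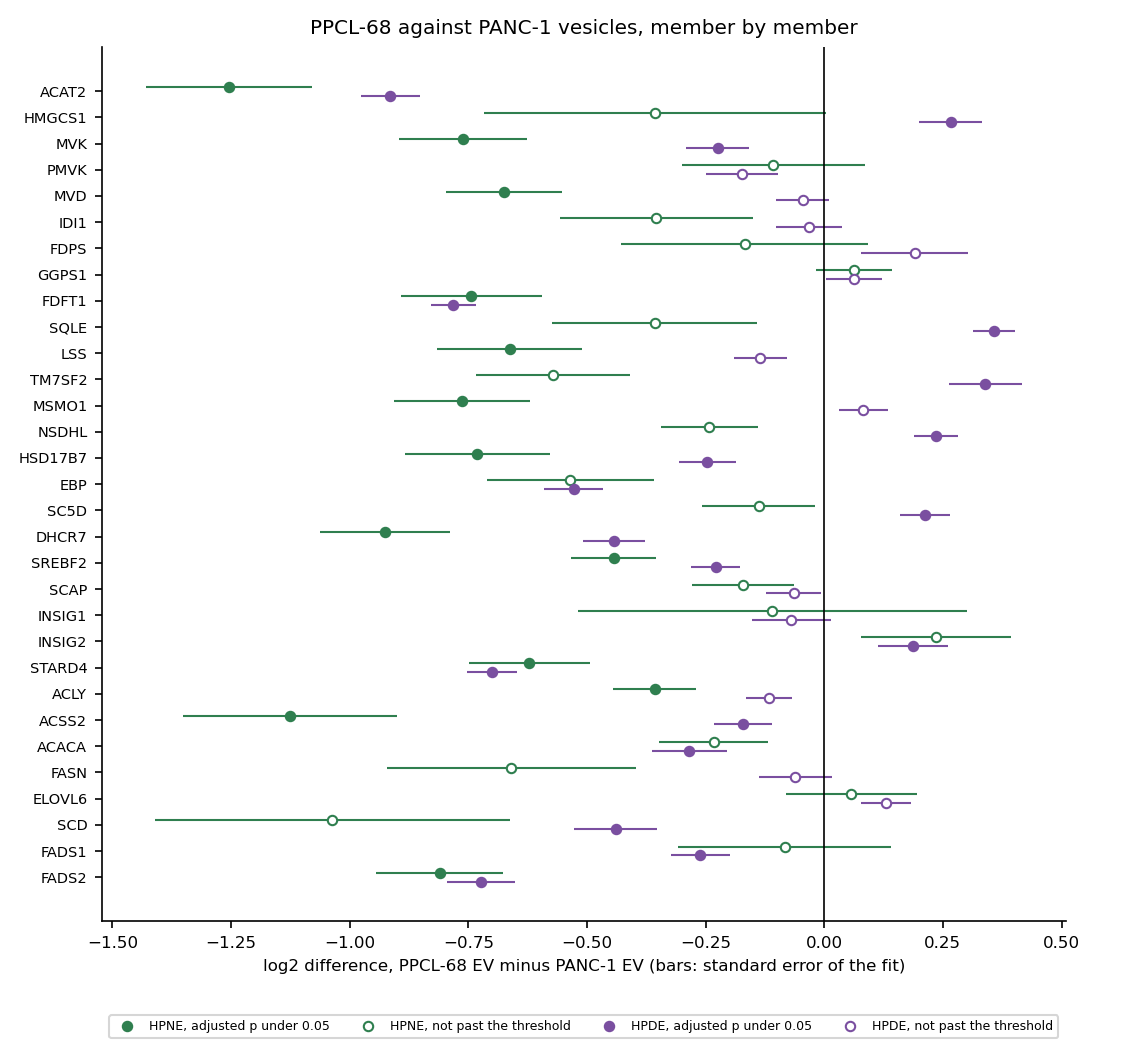
Log2 difference between PPCL-68 and PANC-1 vesicles (x axis, log2(FPKM + 1) scale) of the 31 tested members in HPNE (green) and HPDE (purple), with the standard error of the fit as bars; filled points have an adjusted p under 0.05. HPNE points lie left of 0 for 28 members, and in HPDE 6 filled points lie right of 0, SQLE furthest at 0.36.

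Whether a vesicle effect differed between the lines was tested with interaction contrasts, HPDE minus HPNE, in a fit of all 24 libraries. For PANC-1 vesicles against residual medium 2 members passed, against 21.2% of all genes (12.5% lower and 8.65% higher): DHCR7 (log2 difference -0.65, SE 0.16, adjusted p 0.00672) and MSMO1 (log2 difference -0.47, SE 0.16, adjusted p 0.038) had lower differences in HPDE. DHCR7 fell in HPDE and did not pass in HPNE, and MSMO1 fell in both lines. The MSMO1 call was lost in 10 of 12 fits that left out 1 library (adjusted p 0.0553 to 0.0995), among them each HPDE library, and with size factors (-0.41, adjusted p 0.0582), when INSIG2 passed in the other direction (0.58, adjusted p 0.0258). The count was 1 in 8 of the 12 fits, those without an HPDE library, HPNE PANC-1 EV replicate 2 or HPNE residual medium replicate 1, and it was 10 without HPNE PANC-1 EV replicate 3 and 5 without HPNE residual medium replicate 3. For PPCL-68 vesicles 5 passed, against 25.7% of all genes (12.1% higher and 13.6% lower), all with a smaller fall in HPDE or a rise: ACAT2 (log2 difference 0.70, SE 0.19, adjusted p 0.0122), ACSS2 (0.68, adjusted p 0.0474), TM7SF2 (0.64, adjusted p 0.0129), MVD (0.60, adjusted p 0.00285) and HSD17B7, a ketosteroid reductase of the pathway (0.47, adjusted p 0.0394). The ACSS2 call was lost in 9 of 12 such fits (adjusted p 0.0654 to 0.12) and the HSD17B7 call in 10 of 12 (adjusted p 0.0513 to 0.116). The count was 3 in 7 of the 12 fits, those without HPNE residual medium replicate 1, HPNE PPCL-68 EV replicate 2 or 3, HPDE residual medium replicate 1 or 3 or HPDE PPCL-68 EV replicate 2 or 3. ACAT2, TM7SF2 and MVD passed in all 12, as did DHCR7 for PANC-1 vesicles.

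For residual medium against untreated 3 members differed between the lines, against 38.1% of all genes: ACSS2, which fell further in HPNE (log2 difference 0.99, SE 0.25, adjusted p 0.00458), INSIG2, which rose in HPNE and did not pass in HPDE (log2 difference -0.86, SE 0.18, adjusted p 0.00143), and LSS, which fell further in HPNE (log2 difference 0.56, SE 0.17, adjusted p 0.0146). All 3 passed in each of 12 fits that left out 1 library, and the count was 6 without HPNE untreated replicate 3 or HPNE residual medium replicate 3. With size factors 2 were higher and 3 lower. Without the 4 HPNE libraries apart the 3 contrasts gave 7 members (4 higher and 3 lower), 13 (13 and 0) and 16 (7 and 9), against 46.7%, 45.8% and 61.9% of all genes.

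Untreated HPDE and HPNE cells differed in most members before any treatment, as they did in most genes. In HPDE 16 members were higher and 9 lower, with 83.8% of all genes called (56.0% higher and 27.7% lower). The member median was 0.45 and that of all genes 0.38. With size factors the median of all genes dropped to 0.07, the member median to 0.09, and 13 members were higher and 13 lower. The following directions are those that held under both scalings. Among the members higher in HPDE, the sterol enzyme FDFT1 held 102, 106 and 141 FPKM in HPNE and 258, 266 and 251 FPKM in HPDE (log2 difference 1.16, SE 0.11, adjusted p 7.88e-09), and HSD17B7 3.27, 4.24 and 4.02 and 9.69, 9.52 and 9.37 FPKM (1.13, adjusted p 1.8e-08). HMGCS1 (1.05, adjusted p 0.00165), PMVK (1.15, adjusted p 8.78e-07) and FASN (1.15, adjusted p 3.21e-05) were also higher.

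Regulators stood the other way, with 4 of 5 lower in HPDE. SREBF2 was lower (-0.84, adjusted p 7.3e-10), as were SCAP (-0.82, adjusted p 2.31e-08), INSIG1 (-1.09, adjusted p 0.00338) and STARD4 (-0.37, adjusted p 0.00193), while INSIG2 was higher (0.92, adjusted p 1.33e-06). FADS1 was the member furthest below HPNE, with 198, 207 and 129 FPKM there and 61.02, 58.9 and 56.7 FPKM in HPDE (log2 difference -1.55, SE 0.17, adjusted p 5.95e-08). MVD (-0.52, adjusted p 4.63e-05), IDI1 (-0.61, adjusted p 0.00152), LSS (-0.49, adjusted p 0.000762) and FADS2 (-0.90, adjusted p 2.86e-07) were lower as well. For ACLY the direction turned with the scaling, from 0.01 to -0.35 with size factors. Among untreated libraries the most abundant members per length were SCD and FADS1 in HPNE and SCD, FDFT1 and FASN in HPDE.

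Other genes of sterol and lipid handling, listed by function with earlier results of these data known, moved in both directions against residual medium. The shares of all genes that were higher and lower, beside which the following counts stand, were 13.9% and 10.3% in HPNE with PANC-1, 20.3% and 19.7% in HPNE with PPCL-68, 28.2% and 35.1% in HPDE with PANC-1 and 31.3% and 36.4% in HPDE with PPCL-68 vesicles. Of 7 genes for SREBP processing and retention in the endoplasmic reticulum, 2 rose and 0 fell in HPNE with PANC-1 vesicles, 4 and 0 with PPCL-68, and in HPDE 4 rose and 1 fell with PANC-1 and 5 and 1 with PPCL-68. RNF139, a ubiquitin ligase of the endoplasmic reticulum, rose in all 4 (0.42, adjusted p 0.0465 and 0.41, adjusted p 0.0344 in HPNE, and 0.37, adjusted p 2.05e-05 and 0.48, adjusted p 1.04e-06 in HPDE), the HPNE calls being lost without HPNE PANC-1 EV replicate 1 or 2 or HPNE residual medium replicate 1 or 2 (adjusted p 0.0874 to 0.148) and without HPNE PPCL-68 EV replicate 1 or 2 or HPNE residual medium replicate 1 or 2 (adjusted p 0.0707 to 0.11). MBTPS2, the protease of the second SREBP cleavage, rose in HPDE with both sources (0.46, adjusted p 1.39e-05 and 0.41, adjusted p 2.99e-05). SREBF1, the SREBP gene tied most to fatty acids, rose in HPDE with PANC-1 vesicles (0.31, adjusted p 0.000402).

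Of 5 efflux genes, which are targets or members of the LXR sterol sensors, ABCA1, the cholesterol exporter, rose in all 4 comparisons. Its log2 differences were 2.53, adjusted p 0.00488 and 2.10, adjusted p 0.00613 in HPNE and 1.24, adjusted p 7.45e-08 and 0.73, adjusted p 1e-05 in HPDE, for PANC-1 and PPCL-68 vesicles. It had fallen in HPNE with residual medium against untreated (-3.16, adjusted p 0.000767), along with 2 others of the 4 tested, MYLIP (-2.22, adjusted p 0.0106) and NR1H3 (-1.73, adjusted p 0.00156). ABCG1, another exporter, rose in HPDE with PANC-1 (1.43, adjusted p 8.53e-08) and PPCL-68 vesicles (0.93, adjusted p 4.35e-06). In all, 1 of 4 tested efflux genes rose in HPNE with each source and 3 of 5 in HPDE with each source, where 13.9%, 20.3%, 28.2% and 31.3% of all genes were higher. In HPDE with PANC-1 vesicles 1 of the 5 fell, where 35.1% of all genes were lower, and none fell in the other comparisons with residual medium. Against untreated the HPNE efflux genes had medians below 0 (-0.84 with PANC-1 and -1.19 with PPCL-68). For each source 0 of 4 were higher and 1 lower, where 11.5% and 23.8% of all genes were lower. Without the libraries apart 4 of 4 were lower for each, beside 33.3% and 38.5% of all genes. In HPDE 3 of 5 were higher than untreated with each source, where 26.3% and 30.1% of all genes were higher.

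Of 10 genes of sterol transport and storage, 2 rose and 2 fell in HPNE with PANC-1 vesicles, 2 and 5 with PPCL-68, and in HPDE 3 and 5 with PANC-1 and 4 and 5 with PPCL-68, where 63.3% and 67.7% of all genes were called. TMEM97, a sterol-responsive membrane protein, fell in all 4 (-0.69, adjusted p 0.0469 and -1.29, adjusted p 0.00142 in HPNE, -0.80, adjusted p 7.92e-08 and -0.91, adjusted p 1.24e-08 in HPDE), the first call being lost without HPNE PANC-1 EV replicate 2 or 3 or HPNE residual medium replicate 1 or 2 (adjusted p 0.0867 to 0.171). NPC1, which exports cholesterol from lysosomes, rose in HPNE with PANC-1 (0.43, adjusted p 0.00542) and PPCL-68 vesicles (0.98, adjusted p 3.52e-05). LIPA, the lysosomal lipase that frees cholesterol from esters, fell with PPCL-68 vesicles in HPNE (-0.89, adjusted p 0.000534) and HPDE (-0.59, adjusted p 4.64e-07).

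Of 9 tested genes of the isoprenoid branches, which lead to dolichol, ubiquinone and protein prenylation and not to sterols, 1 rose and 1 fell in HPNE with each source, 4 rose and 2 fell in HPDE with PANC-1, and 5 rose and 2 fell in HPDE with PPCL-68 vesicles, HPDE shares near those of all genes called (63.3% and 67.7%). PGGT1B, a subunit of a prenyltransferase, rose in HPNE with both sources (0.40, adjusted p 0.0106 and 0.45, adjusted p 0.00307). Of 18 tested other fatty acid and glycerolipid genes, 1 rose and 2 fell in HPNE with PANC-1, 2 and 6 with PPCL-68, and in HPDE 2 and 10 with PANC-1 and 7 and 10 with PPCL-68. The 8 of 18 called in HPNE with PPCL-68 and the 12 of 18 in HPDE with PANC-1 lie near the 39.9% and 63.3% of all genes. SLC25A1, the mitochondrial citrate carrier that feeds ACLY, fell in HPNE with PANC-1 (-0.42, adjusted p 0.00634) and PPCL-68 vesicles (-0.99, adjusted p 3.56e-05). ACSL1, which activates long-chain fatty acids, rose in HPNE with both (0.83, adjusted p 0.0419 and 1.69, adjusted p 0.000765), the first call being lost without HPNE PANC-1 EV replicate 1, 2 or 3 or HPNE residual medium replicate 1 or 2 (adjusted p 0.0794 to 0.156). IDH1, a cytosolic source of NADPH, fell in HPDE with both (-0.67, adjusted p 4.39e-08 and -0.66, adjusted p 2.77e-08). Without the libraries apart the HPNE counts, higher and lower, were 6 and 0 with PANC-1 and 5 and 0 with PPCL-68 vesicles for SREBP processing, 2 and 0, then 2 and 1, for efflux, 3 and 4, then 2 and 6, for transport, 2 and 5, then 1 and 5, for the isoprenoid branches, and 3 and 6, then 3 and 11, for the other fatty acid genes.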

How the data were processed

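RNA-seq was measured in 24 libraries of 2 pancreas lines, 3 for each of 8 groups; the library kit kept no strand, per the labels' protocols. The submitters' processing notes name CASAVA, STAR, HTSeq, DESeq2 and the hg19 build, with no versions and no role for each; the annotation release and the handling of overlapping genes are not given in the sources used here. The deposited values are FPKM per gene, computed by the authors from whole reads: the reads behind them were recovered from the steps between values, with 100% of values whole within 0.01 of a read.

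Genes with a mean of at least 1 FPKM over the libraries fitted were tested on log2(FPKM + 1) with limma 3.58.1 (lmFit, then eBayes with trend) in R 4.3.3, two-sided, with Benjamini-Hochberg adjustment over all genes tested (11503 in HPNE, 12223 in HPDE, 12377 in both lines together) and a threshold of 0.05. Each line was fitted on its 12 libraries with 8 residual degrees of freedom; contrasts between the lines used all 24 libraries with 16. A fold change on this scale understates that of low genes. The scripts were tested on simulated data. Replicate numbers come from the labels. Between PPCL-68 and PANC-1 vesicles in HPNE, same-numbered libraries deviated together (r = 0.57, 0.29 and 0.50 over genes). In no other comparison were all 3 correlations above 0.1, and between residual medium and untreated in HPNE they were -0.39, -0.39 and -0.51. The main fits therefore have no replicate block, so this pairing of the sources in HPNE is left out of them. The block that was tried is 1 effect per replicate number across all groups of the fit, and no paired fit of the 2 vesicle groups alone was run. Limma voom on the recovered reads called 2927 and 4603 of 11503 genes in HPNE and 7834 and 8332 of 12223 in HPDE for PANC-1 and PPCL-68 vesicles against residual medium.

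Also tried were size factors, adding 0.1 FPKM before the log, no filter on low values, only the 6 libraries compared, the replicate block, a weight per cell line, and leaving out each library in turn or the 4 HPNE libraries that stood apart (4 residual degrees of freedom). The members and gene lists were chosen with earlier results of these data known. Values in every library were fixed for HMGCS1, IDI1, SQLE, LSS, DHCR7, INSIG1, SREBF2, STARD4, ACLY, FASN, SCD and FADS2. Besides these, up to 3 members that rose most and 3 that fell most past the threshold were named for each comparison within a line, and up to 5 for each contrast between the lines; some further members, and up to 4 genes of each other list that passed, were named after their values were seen. Replicates differed by 3.90 to 149 times sampling noise (chi-square per degree of freedom over read counts), so no library was a second count of the same reads; this does not show that they came from separate cultures. Figures were drawn with matplotlib 3.10.9.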

Additional observations from a re-analysis of the deposited data

Results flagged for a closer look

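The effect of a treatment differed between HPDE and HPNE in 10 results, each by the limma interaction contrast, HPDE minus HPNE, on log2(FPKM + 1). With PANC-1 vesicles against residual medium 2 of 31 members passed, beside 21.2% of all genes: DHCR7 (-0.65), which fell in HPDE and did not pass in HPNE, and MSMO1 (-0.47), which fell further in HPDE. With PPCL-68 vesicles 5 passed, beside 25.7% of all genes: ACAT2 (0.70), ACSS2 (0.68), MVD (0.60) and HSD17B7 (0.47), which fell further in HPNE, and TM7SF2 (0.64), which rose in HPDE and was at -0.27, without passing, in HPNE. With residual medium against untreated 3 passed, beside 38.1% of all genes: ACSS2 (0.99) and LSS (0.56), which fell further in HPNE, and INSIG2 (-0.86), which rose in HPNE. These shares of members lie below those of all genes. On leaving out 1 library, MSMO1 and HSD17B7 were each lost in 10 of 12 fits and ACSS2 with PPCL-68 vesicles in 9 of 12.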

How the results depend on the processing

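The HPNE counts depended on the libraries that stood apart. Without them the members called numbered 25 for PANC-1 and 28 for PPCL-68 vesicles against residual medium, 21 for residual medium against untreated and 20 for PPCL-68 against PANC-1 vesicles, and the contrasts between the lines gave 7, 13 and 16, with a median of -0.042 for PANC-1 vesicles. With no filter on low values the counts were 8 for PANC-1 vesicles against residual medium, 7 for residual medium against untreated and 7 for PPCL-68 against PANC-1 vesicles in HPNE, and 1 and 3 for the line contrasts of PANC-1 and PPCL-68 vesicles. With only the 6 libraries compared the HPNE counts were 7 for PANC-1 vesicles against residual medium and 4 for PPCL-68 against PANC-1 vesicles. Size factors gave 9 members for the PPCL-68 line contrast, 5 for that of residual medium and a median of 0.092 for untreated HPDE against HPNE, and turned the direction there of ACLY (-0.35), MSMO1 (-0.33) and SC5D (-0.12). A weight per cell line gave 6 for the residual medium line contrast. The medians with a pseudocount of 0.1 and with voom on the recovered reads were -1.01 and -1.02 for PPCL-68 vesicles against residual medium in HPNE, -0.62 and -0.62 for PANC-1 vesicles against residual medium in HPDE and -1.12 and -1.13 for PPCL-68 vesicles against untreated in HPDE; both leave less weight on the added 1 FPKM. Other causes were not tested.

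Leaving out each library in turn gave 9 to 16 members (median -0.61 to -0.23) for PANC-1 and 20 to 24 (-1.02 to -0.78) for PPCL-68 vesicles against residual medium in HPNE, 5 to 14 for residual medium against untreated, 11 to 23 and 24 to 26 for the sources against untreated, and 2 to 14 (-0.64 to -0.32) for PPCL-68 against PANC-1 vesicles. In HPDE the same 6 comparisons gave 22 to 23, 25 to 28, 15 to 17, 25 to 27, 27 and 16 to 20. The line contrasts gave 1 to 10 (-0.33 to -0.055), 3 to 6 and 3 to 6, and untreated HPDE against HPNE 24 to 26. With the replicate block the counts were 12 for PPCL-68 against PANC-1 vesicles in HPNE, 26 for PPCL-68 vesicles against residual medium in HPDE and 3 for the PANC-1 line contrast; in the other comparisons the total was as without it, with 5 higher and 14 lower for PPCL-68 against PANC-1 vesicles in HPDE. Mean correlations of same-numbered libraries ran from -0.43 to 0.21 in the comparisons where the numbers did not pair them. Of 7847 single-gene values under all alternatives, 7294 kept their side of the threshold, 379 lost the call and 171 gained one. Another 3, called in the main fit or the alternative, turned direction. The 7294 include values called in neither fit, whichever way they pointed. In HPNE the spread between replicates limits what could be called, as for INSIG1.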
